A study of Mus musculus with 6 samples.

Results

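Fc receptors bind the constant region of antibodies and let a macrophage take up and respond to antibody-coated particles. In the mouse, the activating receptors for IgG encoded by Fcgr1, Fcgr3 and Fcgr4 signal through a shared gamma chain encoded by Fcer1g, whose paired tyrosines (the immunoreceptor tyrosine-based activation motif, ITAM) are phosphorylated by Src-family kinases and then bound by the kinase Syk. The receptor encoded by Fcgr2b carries an inhibitory motif (ITIM) instead and recruits phosphatases that oppose this signal, and Fcgrt encodes the neonatal receptor, which pairs with beta-2 microglobulin and protects IgG from breakdown inside the cell. These 7 genes were chosen by symbol, out of 54427 distinct symbols in the deposited tables, and each symbol had 1 entry. All 7 passed the filter of 1 FPKM on average (reads or fragments scaled to gene length and to library size).

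RNA had been sequenced from bone-marrow-derived macrophages of C57BL/6 mice, which are phagocytes grown in culture from marrow precursors. Cxcr4 had been targeted by a transfected short interfering RNA (siRNA) in 3 samples (siCXCR4), and 3 controls carried a negative-control siRNA (siNC). All samples, controls included, had received lipopolysaccharide (LPS) at 100 ng/ml for 12 hours, so no unstimulated level is measured here. The series title calls the cells monocyte-derived, and the deposited columns are named mko for siCXCR4 and wt for siNC, terms that no source used here explains.

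The table labelled siNC replicate 3 repeated siNC replicate 2, as read counts, for each of 19072 genes with a read, so the pair was counted once, which left 3 siCXCR4 and 2 siNC libraries. The siCXCR4 libraries held 18890751 to 21780840 reads in genes and the siNC libraries 19292520 and 21443370. Cxcr4 itself was at 33.4 ± 2.62 FPKM in siCXCR4 (SD, n = 3) and 41.7 ± 0.616 FPKM in siNC (SD, n = 2), without overlap, and did not pass limma's test across all genes (adjusted p = 0.457 by limma, 0.0637 by edgeR and 0.0496 by DESeq2, of which the last is under the threshold of 0.05). The labels name no separate animals or cultures, so each p-value speaks of the spread among these libraries alone, and that spread may be technical. In bulk RNA, fewer cells of a type and less RNA per cell cannot be told apart.

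The cells carried high levels of macrophage markers, with a summed level of 3887 to 4293 FPKM over 7 genes in siCXCR4 and 4055 to 4324 FPKM in siNC. Markers of other cells that carry Fc receptors were low: the summed level was at most 0.870 FPKM in siCXCR4 and 1.05 FPKM in siNC for 5 B-cell genes. For 5 natural killer cell genes it was at most 0.772 FPKM in siCXCR4 and 0.814 FPKM in siNC, with Eomes at 0, and for 6 mast-cell and basophil genes at most 0.286 FPKM in siCXCR4 and 0.151 FPKM in siNC, with Mcpt4 and Tpsb2 at 0. Of neutrophil genes, 7 summed to 85.3 to 100.1 FPKM in siCXCR4 and 105.9 to 109.2 FPKM in siNC. In 2 of the 5 tested, S100a8 and S100a9, every siCXCR4 library lay below both siNC libraries, beside 9.92% of all genes. S100a9 was at 41.9 ± 4.23 FPKM in siCXCR4 and 52.7 ± 0.291 FPKM in siNC, and S100a8 at 10.9, 13.3 and 10.7 FPKM in siCXCR4, against 18.2 and 15.4 FPKM in siNC. The groups overlapped for Ngp, at 34.5, 27.4 and 29.1 FPKM in siCXCR4, against 29.8 and 29.2 FPKM in siNC, and likewise for Camp, Ltf and Mmp8. Of this list S100a9 is named as the most abundant gene, and the others were named after their values were seen. Ly6g was at 0 in all 3 siCXCR4 libraries and at 0 and 0.162 FPKM in siNC. The part of such cells in the Fc receptor values was not tested. Of the remaining lists, 5 dendritic-cell genes summed to 1.13 to 1.23 FPKM in siCXCR4 and 0.889 to 0.987 FPKM in siNC, 5 T-cell genes to 1.38 to 1.78 and 1.25 to 1.54 FPKM, and 5 fibroblast genes to 0.382 to 0.729 and 0.561 to 1.004 FPKM, each with siCXCR4 before siNC.

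The difference between an activating and an inhibitory chain lies in a short stretch of coding sequence. The first line below is the ITAM of the gamma chain (codons 65 to 79 in the transcript Fcer1g-201, chromosome 1), with its tyrosine codons in capitals. The second is the ITIM of Fcgr2b (codons 317 to 322 in Fcgr2b-201, chromosome 1), with its tyrosine codon in capitals.
Fcer1g ITAM: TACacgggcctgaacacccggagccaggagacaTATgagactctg
Fcgr2b ITIM: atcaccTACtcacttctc
Among the 7 coding sequences the paired motif was found in Fcer1g alone, searched as a tyrosine with leucine or isoleucine 3 residues on, repeated after 6 to 12 residues. Fcgr1, Fcgr3 and Fcgr4 held 0 such matches. The short ITIM pattern also matched in Fcgr1, Fcgr4, Fcer1g and Fcgrt, where a match of letters says nothing of function.

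Fcgr3 and Fcgr2b, which signal in opposite ways, are close copies over much of their coding sequence, and this bears on how well their reads can be told apart. Their coding sequences were identical at 685 of 778 aligned bases (88.1%), against 68.3% to 70.9% for every other pair among Fcgr1, Fcgr3, Fcgr4 and Fcgr2b. The longest run without a mismatch was 129 bases, beginning at base 263 of the Fcgr3 coding sequence and base 278 of that of Fcgr2b, both on chromosome 1. For the other pairs it was at most 14 bases.
Shared by Fcgr3 and Fcgr2b: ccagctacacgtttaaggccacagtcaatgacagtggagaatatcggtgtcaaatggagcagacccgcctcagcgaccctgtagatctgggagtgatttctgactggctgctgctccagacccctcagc
Of the 755 windows of 50 bases in the Fcgr3 coding sequence, 166 (21.99%) also occur in a transcript of Fcgr2b, and 0 occur in one of Fcgr4. No label or file header used here gives the read length or the handling of reads that match both genes, so the split of reads between Fcgr3 and Fcgr2b is uncertain.

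In position, 4 of the 7 genes lie within 275.7 kb of chromosome 1 in the order Fcgr2b (170958617 to 170976547), Fcgr4 (171018920 to 171029761), Fcgr3 (171051174 to 171064935) and Fcer1g (171229572 to 171234365), in GRCm38 coordinates. Fcgr4 lies on the plus strand and the others on the minus strand. The interval holds 17 listed genes, of which 7 reached 1 FPKM. Beside the members these were Sdhc, a subunit of succinate dehydrogenase, at 18.2 FPKM on average, Tomm40l at 1.08 FPKM and the small nuclear RNA gene Gm26110 at 1.48 FPKM. Fcgr1 lies on chromosome 3 (96282909 to 96293969, minus strand), Fcgrt on chromosome 7 (45092990 to 45103851, minus strand) and Syk on chromosome 13 (52583173 to 52648792, plus strand). Genes that overlap a member held at most 6.40 reads per library on average, against 270 or more for the members.

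By level per kilobase, the shared chain stood far above the receptors. Averaged over the 5 libraries, Fcer1g was at 919 FPKM, place 34 of 9943 genes. Fcgr4 (260.2 FPKM), Fcgr3 (256 FPKM) and Fcgr1 (237 FPKM) came next, and their order among themselves varied by library. Fcgr4 was above Fcgr3 in 3 of 5 libraries, and Fcgr3 above Fcgr1 in 3 of 5. Syk followed at 178 FPKM and Fcgr2b at 104 FPKM, each below the gene before it in 5 of 5 libraries. Fcgrt was lowest at 6.29 FPKM, below Fcgr2b in 5 of 5 libraries and near the middle of all genes, with 48.2% of tested genes below it. These levels depend on the length the authors divided by, which exceeds the longest complete coding transcript for every member but Fcgr1 and Fcgr4, most of all for Fcgr2b (5790 against 3544 bases) and Syk (9362 against 5363 bases). With every member put on its longest such transcript, Fcgr2b would stand at 163 FPKM in siCXCR4 and 179 FPKM in siNC, still below every activating receptor. Syk would stand at 309 FPKM in siCXCR4 and 310 FPKM in siNC, above Fcgr1 and Fcgr4 and below Fcgr3, which would stand at 332 FPKM in siCXCR4 and 326 FPKM in siNC.

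**Figure D1:**
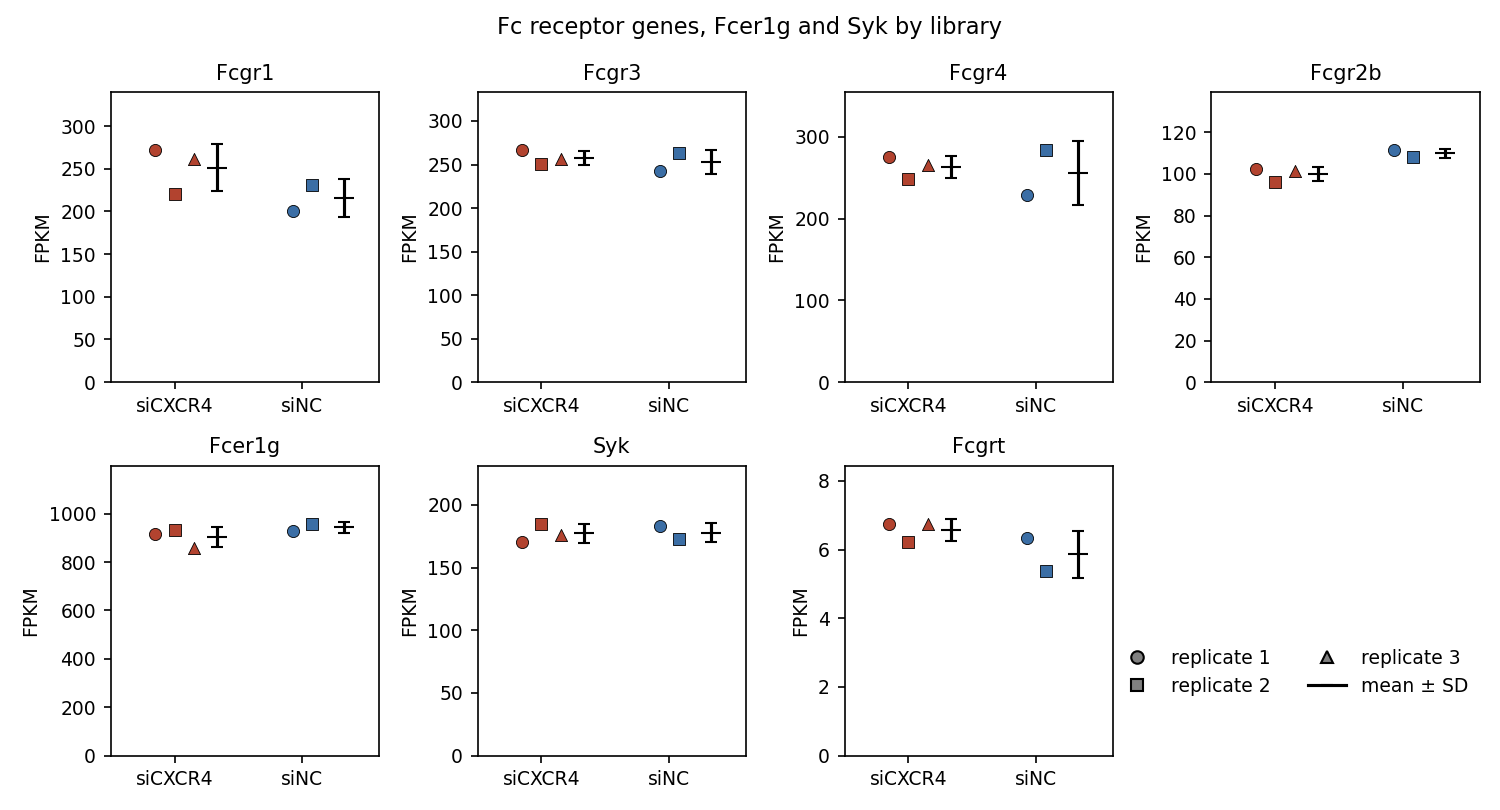
Level of each of the 7 genes in FPKM (vertical axes, from 0, a scale for each gene) in every siCXCR4 library (left of each panel, n = 3) and siNC library (right, n = 2), with the mean and SD of each group. Fcgr2b is the gene whose groups do not overlap, with siCXCR4 at 95.9 to 102 FPKM and siNC at 108 and 111 FPKM.

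The study's comparison asks what differs between macrophages given the Cxcr4 siRNA and controls under LPS. None of the 7 genes passed limma's test across all genes, and 0% of the 9943 genes tested did (smallest adjusted p = 0.389). At an unadjusted p under 0.05 there was 1 member of 7, Fcgr2b, beside 9.34% of all genes. By edgeR on whole reads 0 members passed at an adjusted p under 0.05, beside 0.133% of genes, and 1, again Fcgr2b, had an unadjusted p under 0.05, beside 9.73%. By DESeq2 0 members passed, beside 0.307%. The fitted log2 fold changes, taken on log2(FPKM + 1) with siNC subtracted from siCXCR4, were above 0 for 4 members and below 0 for 3, with a median of 0.03 beside 0.01 for all genes.

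Fcgr1 encodes the high-affinity receptor for monomeric IgG and had the largest fitted difference of the 7. It was at 272, 219.9 and 262 FPKM in siCXCR4 replicates 1, 2 and 3, against 200.5 and 231 FPKM in siNC replicates 1 and 2. Replicates 1 and 3 of siCXCR4 lay above both siNC libraries and replicate 2 lay between them, so the groups overlapped. The log2 fold change was 0.21 (SE 0.109, 95% interval -0.05 to 0.48) and limma's adjusted p was 0.589. Without siCXCR4 replicate 2, edgeR called Fcgr1 as higher, with a log2 fold change of 0.29 and an adjusted p of 0.0169, and called 2.45% of all genes, 0.988% as higher and 1.46% as lower. It was the only member called in that setting, which was added after the data were seen. Over 21 alternatives the adjusted p of Fcgr1 ran from 0.0169 to 0.943, and limma without the same library gave 0.199.

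Fcgr3 and Fcgr4 encode the lower-affinity activating receptors for IgG immune complexes. Fcgr3 was at 267, 250.4 and 257 FPKM in siCXCR4, against 243 and 263 FPKM in siNC. Fcgr4 was at 275, 248 and 266 FPKM in siCXCR4, against 228 and 284 FPKM in siNC. For both genes the siNC libraries lay farther apart than the whole siCXCR4 range, and the groups overlapped. The log2 fold change of Fcgr3 was 0.03 (SE 0.0592, 95% interval -0.11 to 0.17) and limma's adjusted p was 0.898. That of Fcgr4 was 0.05 (SE 0.0997, 95% interval -0.19 to 0.29) and its adjusted p was 0.905. Without siNC replicate 1 both turned below 0, at -0.03 for Fcgr3 and -0.11 for Fcgr4.

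Fcgr2b, the inhibitory receptor, was at 102, 95.9 and 101 FPKM in siCXCR4, against 111 and 108 FPKM in siNC. Every siCXCR4 library lay below both siNC libraries, as they did for 9.92% of all genes tested. Non-overlapping groups in either direction were found for 1 of 7 members, beside 27.8% of all genes. The log2 fold change was -0.14 (SE 0.0525, 95% interval -0.26 to -0.01), with an unadjusted p of 0.0371 and an adjusted p of 0.514 by limma. On whole reads edgeR gave -0.16, with an adjusted p of 0.384, and the value stayed below 0 in all 21 alternatives. As the groups do not overlap, leaving out 1 library with limma could not turn that direction. Alternatives that change only the filter or the variance estimate left the value at -0.14. With 10767 to 14237 reads per library, the 95% counting interval of the level reached at most 1.89% to either side. This covers counting error only, and neither the spread among libraries nor the uncertain split of reads with Fcgr3. S100a8 and S100a9 were also lower in every siCXCR4 library while Ngp, Camp, Ltf and Mmp8 overlapped, and the part of neutrophil RNA in the Fcgr2b values was not tested.

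Fcer1g, the gamma chain, was at 917, 934 and 856 FPKM in siCXCR4, against 928 and 959 FPKM in siNC. The siCXCR4 replicate 2 value lay between the siNC values and the other 2 siCXCR4 values lay below both. Its log2 fold change was -0.06 (SE 0.0608, 95% interval -0.21 to 0.08) and limma's adjusted p was 0.749. Set against the activating receptors it serves, Fcer1g was 1.13, 1.30 and 1.09 times their summed FPKM in siCXCR4, against 1.38 and 1.23 times in siNC, with overlapping groups.

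Syk, the kinase that binds the phosphorylated ITAM, was at 171, 185 and 176 FPKM in siCXCR4, against 183 and 173 FPKM in siNC. Its group means differed the least of the 7 relative to their level, at 177 ± 7.30 FPKM in siCXCR4 and 178 ± 7.44 FPKM in siNC. The log2 fold change was -0.01 (SE 0.0586, 95% interval -0.14 to 0.13) and limma's adjusted p was 0.987.

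Fcgrt, the neonatal receptor, was at 6.75, 6.21 and 6.76 FPKM in siCXCR4, against 6.34 and 5.38 FPKM in siNC. Each library gave it 223 to 309 reads, and the exact Poisson 95% interval of the lowest ran from 4.70 to 6.14 FPKM, which covers counting error only. The log2 fold change was 0.14 (SE 0.0778, 95% interval -0.04 to 0.33) and limma's adjusted p was 0.605. Its partner B2m was at 4701 ± 113 FPKM in siCXCR4 and 4630 ± 310.5 FPKM in siNC, with overlapping groups.

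**Figure D2:**
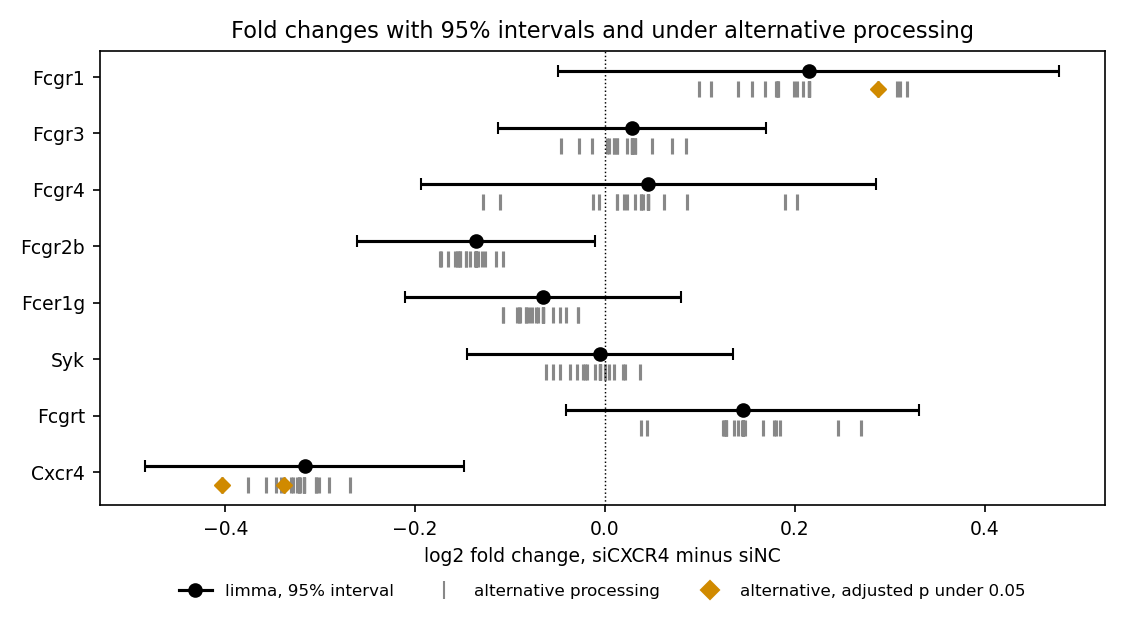
Log2 fold change, siCXCR4 minus siNC, of the 7 genes and of Cxcr4 (horizontal axis), with limma's estimate and 95% interval in black, each of 21 alternative ways of processing as a grey bar, and those with an adjusted p under 0.05 as orange diamonds. Fcgr1 has 1 such diamond, from edgeR without siCXCR4 replicate 2, and Cxcr4 has 2, while the values of Fcgr3, Fcgr4 and Syk lie on both sides of 0.

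The activating receptors were then set against the inhibitory one within each library, where the scaling of the library cancels. The FPKM of Fcgr1 was 2.66, 2.29 and 2.59 times that of Fcgr2b in siCXCR4, against 1.80 and 2.14 times in siNC. For Fcgr3 the ratio was 2.60, 2.61 and 2.53 in siCXCR4, against 2.18 and 2.43 in siNC. For Fcgr4 it was 2.69, 2.59 and 2.62 in siCXCR4, against 2.05 and 2.62 in siNC. The ratios of Fcgr1 and Fcgr3 were higher in every siCXCR4 library than in either siNC library, while those of Fcgr4 overlapped. As the split of reads between Fcgr3 and Fcgr2b is uncertain, the ratio of Fcgr3 to Fcgr2b is uncertain too.

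On the log2 scale the difference in ratio was 0.35 for Fcgr1, 0.17 for Fcgr3 and 0.18 for Fcgr4. A two-sided exact permutation test over the libraries gave p = 0.1 for Fcgr1 and for Fcgr3, the smallest that 3 libraries against 2 allow, and p = 0.2 for Fcgr4. Adjusted over the 3 pairs these were 0.15, 0.15 and 0.2. With this number of libraries the test cannot reach 0.05 whatever the values, so it does not bear on whether the ratios differ. The 3 activating receptors together stood at 7.94, 7.49 and 7.75 times Fcgr2b in siCXCR4, against 6.03 and 7.19 times in siNC. Of 9942 other genes, 50.7% had a ratio to Fcgr2b that was higher in every siCXCR4 library and 1.65% one that was lower, so a higher ratio was not particular to the activating receptors.

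**Figure D3:**
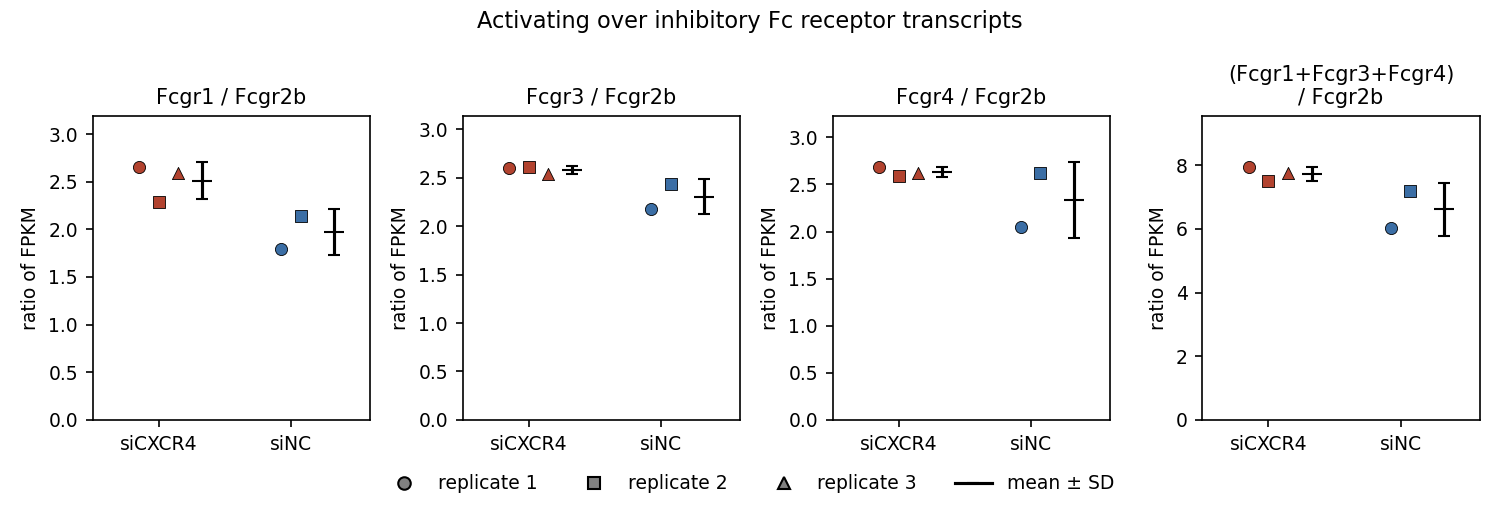
Ratio of the FPKM of each activating receptor, and of their sum, to that of Fcgr2b (vertical axes, from 0) in each siCXCR4 library (left, n = 3) and siNC library (right, n = 2), with the mean and SD. For Fcgr1 the siCXCR4 libraries lie at 2.29 to 2.66 and the siNC libraries at 1.80 and 2.14, and for Fcgr4 siNC replicate 2 lies among the siCXCR4 libraries.

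The libraries of a group differed in the same way for several receptors. Among siCXCR4 libraries, replicate 1 was highest and replicate 2 lowest for Fcgr1, Fcgr3, Fcgr4 and Fcgr2b, while replicate 2 was the highest for Fcer1g and Syk. Between the siNC libraries, replicate 2 was above replicate 1 for Fcgr1, Fcgr3, Fcgr4 and Fcer1g and below it for Fcgr2b, Syk and Fcgrt. The gene whose pattern over the 5 libraries was most like that of Fcgr1, by Pearson's r of log2(FPKM + 1), was Gbp3, an interferon-inducible guanylate-binding protein, with r = 0.998 and 465.8 ± 32.9 FPKM in siCXCR4 and 424 ± 24.5 FPKM in siNC. For Fcgr2b it was Dram1 (r = 0.999, at 62.1 ± 2.25 FPKM in siCXCR4 and 69.6 ± 1.72 FPKM in siNC). The nearest genes to the others were Amz2 for Fcgr3, Zfp281 for Fcgr4, Mrrf for Fcer1g, Gfi1 for Syk and Eif2a for Fcgrt, with r from 0.99 to 0.999. With 5 libraries such values are common, and 514 genes had r over 0.9 with Fcgr1.

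The sequence before the first exon is shown for Fcgr1, which had the largest difference, and for Fcgr4, which stood at a like level on another chromosome. Both are from RefSeq's promoter table (GRCm38.p6), at chr3:96293970-96294219 on the minus strand and chr1:171018676-171018919 on the plus strand. Capitals mark TTCNNNGAA, a form of the site bound by STAT factors, and GAGGAA on either strand, a form bound by the myeloid factor PU.1.
Fcgr1 upstream: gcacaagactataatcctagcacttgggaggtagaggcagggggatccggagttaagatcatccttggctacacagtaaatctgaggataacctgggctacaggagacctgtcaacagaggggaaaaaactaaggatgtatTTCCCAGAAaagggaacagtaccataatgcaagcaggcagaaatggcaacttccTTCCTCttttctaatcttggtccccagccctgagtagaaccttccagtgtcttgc
Fcgr4 upstream: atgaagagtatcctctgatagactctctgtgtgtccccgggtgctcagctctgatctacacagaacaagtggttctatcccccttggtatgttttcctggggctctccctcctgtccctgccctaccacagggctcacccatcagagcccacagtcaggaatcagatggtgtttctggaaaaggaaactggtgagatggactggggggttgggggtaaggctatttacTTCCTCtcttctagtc
The Fcgr1 window held TTCNNNGAA and GAGGAA (as TTCCTC), and the Fcgr4 window held GAGGAA alone. Both motifs were searched on both strands, and the marked forms do not overlap. All 7 genes matched the RefSeq table, and TTCNNNGAA was found in the window of Fcgr1 alone. GAGGAA was also found for Fcgr3 and in a window of Syk. The windows are not all alike: that of Fcgr2b lay in annotated exons for 203 of its 250 bases, and another of Syk for all 250. Of 32851 windows of 250 bases before RefSeq starts, 7.02% hold TTCNNNGAA and 23.3% hold GAGGAA. A match describes these letters and shows no binding.

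Around the receptors, 8 lists of Fc receptor pathway genes held 100 genes, of which 85 reached the level tested. By limma 0 of the 85 passed, and at an unadjusted p under 0.05 there were 7 higher and 6 lower, beside 5.8% and 3.54% of all genes. Their median log2 fold change was 0.03, beside 0.01 for all genes. Without siCXCR4 replicate 2, edgeR called 6 of them, 1 as higher (Tec), beside 0.988% of all genes, and 5 as lower (Tyrobp, Clec4d, Clec4e, Cd33 and Pilrb2), beside 1.46%. That setting was added after the data were seen, and edgeR with every distinct library called 0 of them. Among all genes tested by limma, 56.4% lay above 0, against which the counts above 0 in each list are to be read. The read totals that FPKM was scaled to, worked out from the values, differed by group in their share outside genes. It was 2.80% and 2.15% in siNC and 0.000330%, 0.312% and 1.37% in siCXCR4. The median of all genes was 0.015 by limma, which used FPKM as deposited, and -0.006 by edgeR. The part of this scaling in values as small as the list medians was not tested.

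Of the Src-family kinases that phosphorylate the ITAM and their regulators, 9 of 10 were measured, with 7 above 0 and a median of 0.06. Fgr, a Src-family kinase, was at 49.0 ± 1.21 FPKM in siCXCR4 and 44.8 ± 1.27 FPKM in siNC. Lyn was at 162 ± 5.68 FPKM in siCXCR4 and 151 ± 3.31 FPKM in siNC. Csk, which phosphorylates the inhibitory tail tyrosine of these kinases, was at 48.8 ± 2.23 FPKM in siCXCR4 and 44.0 ± 1.83 FPKM in siNC. In these genes all siCXCR4 values lay above both siNC values, as they did for 17.9% of all genes. Pag1, an adaptor that binds Csk, lay the other way at 4.27 ± 0.289 FPKM in siCXCR4 and 4.73 ± 0.287 FPKM in siNC.

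Of the genes downstream of Syk all 22 were measured, with 17 above 0 and a median of 0.03. Blnk, an adaptor phosphorylated by Syk, was at 28.3 ± 0.754 FPKM in siCXCR4 and 25.2 ± 0.266 FPKM in siNC, without overlap (log2 fold change 0.16, adjusted p = 0.494 by limma). Tec, a kinase of the Btk family, was at 6.52 ± 1.04 FPKM in siCXCR4 and 5.18 ± 0.375 FPKM in siNC, with siCXCR4 replicate 2 between the siNC libraries. Vav1, an exchange factor for Rac, was at 151 ± 7.80 FPKM in siCXCR4 and 140.1 ± 3.05 FPKM in siNC. Malt1, a paracaspase that acts with Card9 and Bcl10, was at 67.3 ± 3.23 FPKM in siCXCR4 and 73.4 ± 3.62 FPKM in siNC. Blnk was among the 2 of 22 with every siCXCR4 library above both siNC libraries, beside 17.9% of all genes. Malt1 was the 1 of 22 with every siCXCR4 library below both, beside 9.92%.

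Of 10 phosphatases and other brakes, 8 lay above 0, with a median of 0.06. Inppl1, a lipid phosphatase, was at 11.0 ± 0.493 FPKM in siCXCR4 and 9.58 ± 0.413 FPKM in siNC. Ptpn6, the tyrosine phosphatase SHP-1 recruited by ITIM receptors, was at 251 ± 8.32 FPKM in siCXCR4 and 231 ± 2.48 FPKM in siNC. Cblb, a ubiquitin ligase, was at 7.49 ± 0.179 FPKM in siCXCR4 and 6.97 ± 0.269 FPKM in siNC, and the adaptor Dok3 at 29.5 ± 1.96 and 27.3 ± 1.34 FPKM. Inppl1, Ptpn6 and Cblb were among the 5 of 10 with every siCXCR4 library above both siNC libraries, beside 17.9% of all genes.

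Of 13 genes of the actin machinery of the phagocytic cup, 12 lay above 0, with a median of 0.06 and values from -0.04 to 0.13. The GTPase Rac1 was at 68.3 ± 1.21 FPKM in siCXCR4 and 62.2 ± 2.58 FPKM in siNC, and Rac2, its form in blood cells, at 171 ± 3.97 FPKM in siCXCR4 and 156 ± 8.89 FPKM in siNC. Dock2, an exchange factor for Rac, was at 12.5 ± 0.440 and 11.6 ± 0.168 FPKM, and Wasf2, which activates the Arp2/3 complex, at 35.6 ± 0.714 and 33.8 ± 0.920 FPKM, siCXCR4 before siNC in each. These are 4 of the 5 list members, of 13, with every siCXCR4 library above both siNC libraries, beside 17.9% of all genes.

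Other receptors that signal through ITAMs, with their adaptors, lay mostly below 0, in 10 of 14 measured members of 17, with a median of -0.12. Pilrb2, an activating paired receptor, was at 9.50 ± 0.307 FPKM in siCXCR4 and 12.0 ± 0.0324 FPKM in siNC, and its neighbour Pilrb1 at 15.2 ± 0.485 FPKM in siCXCR4 and 17.4 ± 0.713 FPKM in siNC. Cd300lb lay the other way, at 7.90 ± 0.257 FPKM in siCXCR4 and 6.24 ± 0.0962 FPKM in siNC, as did Sirpb1a at 8.13 ± 0.703 and 6.34 ± 1.08 FPKM. Clec4n (Dectin-2), a fungal receptor that pairs with the Fcer1g chain and was named after its values were seen, had the lowest log2 fold change of the list at -0.52. It was at 4.11, 6.58 and 3.46 FPKM in siCXCR4, against 9.48 and 5.11 FPKM in siNC, with siCXCR4 replicate 2 between the siNC libraries.

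Tyrobp encodes DAP12, an ITAM adaptor that serves other myeloid receptors as Fcer1g serves the Fc receptors, and is named because of that call without siCXCR4 replicate 2. It was at 316, 391 and 286 FPKM in siCXCR4, against 390.5 and 359.9 FPKM in siNC, and its adjusted p by edgeR was 0.00300 without siCXCR4 replicate 2. That setting was added after the data were seen. With all 5 libraries, limma, edgeR and DESeq2 called 0 genes of this list. The C-type lectins Clec4d and Clec4e, which act through Fcer1g, followed the same order: Clec4d was at 124, 142 and 112 FPKM in siCXCR4, against 149.7 and 136 FPKM in siNC. Clec4e was at 379, 442.5 and 354 FPKM in siCXCR4, against 442.5 and 411 FPKM in siNC. In all 3 genes siCXCR4 replicate 2 stood above the other siCXCR4 libraries and beside the siNC libraries.

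Other ITIM receptors were measured in 13 of 15, with 6 above 0, 7 below 0 and a median of -0.02. The 4 of lowest p were all below 0. Siglece was at 21.6 ± 1.04 FPKM in siCXCR4 and 25.5 ± 1.78 FPKM in siNC, and Cd33, another sialic-acid-binding receptor, at 15.7 ± 0.442 FPKM in siCXCR4 and 18.6 ± 1.70 FPKM in siNC. Lair1, a collagen receptor, was at 7.25 ± 0.279 FPKM in siCXCR4 and 8.19 ± 0.332 FPKM in siNC, and Pilra, the inhibitory partner of Pilrb1, at 45.8 ± 2.19 and 51.0 ± 2.24 FPKM. These were the 4 of 13 with every siCXCR4 library below both siNC libraries, beside 9.92% of all genes.

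Of 12 other Fc receptor genes, 3 reached the level tested and 9 did not, with Fcamr, Fcmr and Pigr at 0 reads in all 5 libraries. Trim21, a receptor for antibody in the cytosol that was named after its values were seen, was the most abundant at 42.9 ± 1.87 FPKM in siCXCR4 and 42.9 ± 2.76 FPKM in siNC. Fcrlb was at 2.68 ± 0.584 FPKM in siCXCR4 and 2.43 ± 0.361 FPKM in siNC, and Fcrls at 3.11 ± 0.231 and 2.95 ± 0.636 FPKM, with overlapping groups.

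**Figure D4:**
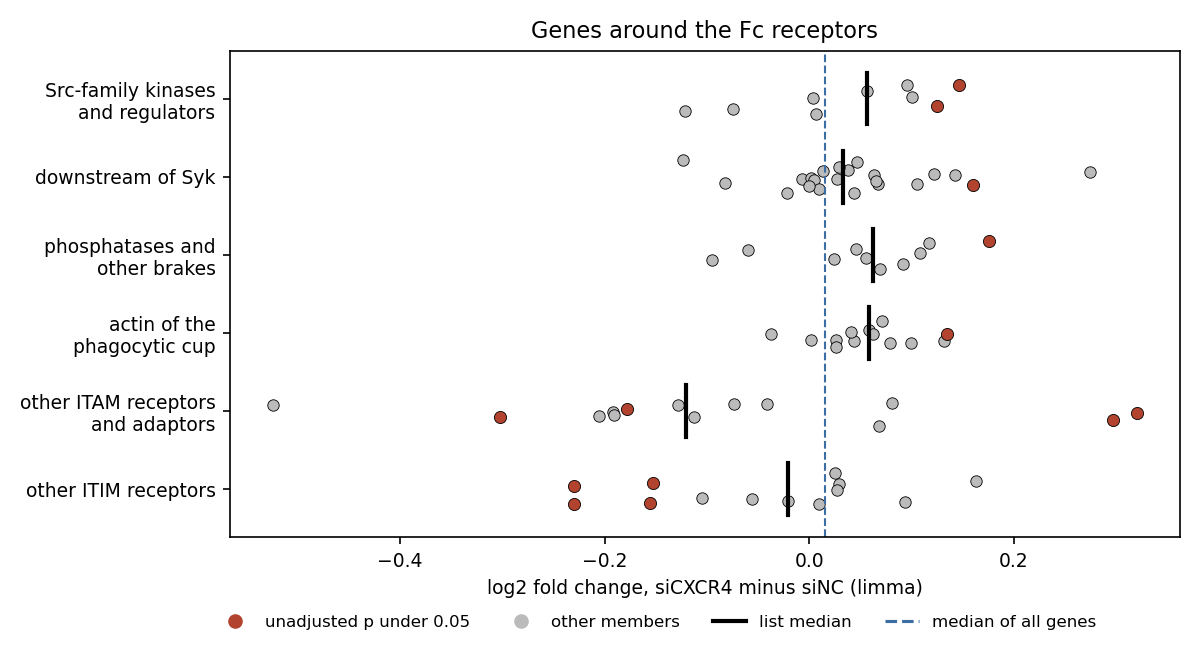
Log2 fold change, siCXCR4 minus siNC, by limma (horizontal axis) of each measured gene in 6 lists around the Fc receptors, with genes of unadjusted p under 0.05 in red, list medians as black bars and the median of all genes, 0.01, as a dashed line. The 4 red genes of other ITIM receptors lie below 0, and no gene passed the test across all genes.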

How the data were processed

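The authors deposited 1 table per sample, and the file headers give no unit. In 5 tables the deposited values were read as FPKM: multiplied by the listed gene length and by 1 scaling factor per library, worked out from the values, they came out as whole read counts (tolerance 0.05 reads). The deposited table of siNC replicate 3 holds read counts. Gene lengths are those the authors deposited. The submitters' processing notes name mm9, yet 98.3% of gene positions, all 7 members among them, equalled those of GRCm38 (GENCODE M21), whose coordinates are given here. No source used here names the aligner, the counter or the strand setting.

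Genes with an average of 1 FPKM or more (9943) were tested with limma 3.58.1 (trend, robust; R 4.3.3) on log2(FPKM + 1), siCXCR4 against siNC, two-sided, with Benjamini-Hochberg adjustment over all genes and a threshold of 0.05. Alternatives on the recovered whole reads were edgeR 4.0.16 (TMM, robust quasi-likelihood test, 12794 genes) and DESeq2 1.42.0. Where a symbol had several entries, the one of highest mean was kept. The tests were checked on simulated counts. Of 50 genes given a 1.25-fold difference there, limma recovered 13 and edgeR 30. Of 50 genes given a 1.5-fold difference, limma recovered 41 and edgeR 47. The changed genes were drawn from those that were not low in reads, and counts were drawn for each gene on its own. Deviations that many genes of 1 library share were therefore not simulated, and recovery in the real libraries may differ.

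Genes were named by rule: the members, Cxcr4, up to 4 of lowest p per list (2 where fewer than 6 were measured), the gene most like each member and the most abundant gene of each marker list. The last were Lyz2 (2350 ± 155 FPKM in siCXCR4 and 2389 ± 114.5 FPKM in siNC), S100a9, Cd79b, Klrb1c, Cd4, Cpa3, Clec9a and Col1a1. The members and lists were chosen with earlier results of these data known. Coding sequences came from GENCODE M21 transcripts and promoters from RefSeq.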

Additional observations from a re-analysis of the deposited data

How the results depend on the processing

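Direction held under all 21 alternatives for Fcgr1, Fcgr2b, Fcer1g, Fcgrt and Cxcr4, and 1 member was called, Fcgr1, in 1 of them. Alternatives that change only the filter or the variance estimate could not turn a direction. Nor could leaving out 1 library with limma for Fcgr2b and Cxcr4, whose groups do not overlap. Leaving out each library in turn with edgeR, and the counts over lists, were chosen after seeing the data. The number of genes called was 0 by limma, 17 by edgeR and 34 by DESeq2. With siNC replicate 3 as a separate replicate the number was 6, but that setting counts 1 library as 2 and understates the spread. Leaving out 1 library gave 0 to 1 with limma and 0 to 312 with edgeR, where 312 came without siCXCR4 replicate 2, 3 without siCXCR4 replicate 3, 5 without siNC replicate 1 and 20 without siNC replicate 2. Pathway list genes called ran from 0 to 6.

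Leaving out 1 library at a time, limma gave log2 fold changes of -0.0274 to 0.085 for Fcgr3, -0.111 to 0.202 for Fcgr4, -0.0475 to 0.0374 for Syk, -0.0153 to 0.23 for Fcrlb, -0.0977 to 0.232 for Fcrls, -0.0452 to 0.0917 for B2m and -0.0738 to 0.031 for Lyz2. With edgeR the values that changed sign were, without siCXCR4 replicate 1, -0.0135 for Fcgr3, -0.0122 for Fcgr4, 0.00473 for Syk, -0.00196 for Fcrls and -0.00828 for B2m. Without siNC replicate 1 they were -0.0458 for Fcgr3, -0.129 for Fcgr4, 0.0196 for Syk, -0.0638 for B2m and 0.00732 for Lyz2. Without siNC replicate 2 they were -0.0156 for Fcrlb and -0.138 for Fcrls, without siCXCR4 replicate 2 -0.0020 for B2m, and without siCXCR4 replicate 3 0.0114 for Lyz2. With siNC replicate 3 as a separate replicate, Fcgr4 was at -0.00656 and Syk at 0.00912. Fcgr1 passed at 0.29 by edgeR without siCXCR4 replicate 2, and Cxcr4 at -0.34 by DESeq2 and at -0.40 by edgeR without siCXCR4 replicate 2. The cause was not tested.

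The replicate block called 0 genes (500 at an unadjusted p under 0.05) and gave 0.18 for Fcgr1, -0.15 for Fcgr2b and 0.031 for Lyz2. Same-numbered libraries had correlations of -0.04 and -0.111 between their deviations from the group mean. With 2 siNC libraries these deviations mirror each other, so the correlations cannot show whether same-numbered libraries were paired. Precision is limited by 2 distinct siNC libraries.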
